A study of Mus musculus with 56 samples.

Results

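The comparison described here set the livers of mice killed 8 h after 1 injection of NTS-1 against the livers of mice given vehicle and killed at the same time. Its 6 arrays, 3 of NTS-1 and 3 of vehicle mice, were chosen by their sample titles out of 56 in the series, and only the single-dose study of 37 arrays in 11 groups was used. NTS-1 is a locked nucleic acid (LNA) gapmer, an antisense oligonucleotide with modified wings around a central run of DNA, where RNase H cuts the RNA it pairs with. The labels class it as non-toxic, and neither its base sequence nor its target is given in the sources used here. The mice were male CD-1 animals, an outbred stock, aged 6 to 8 weeks when dosing began. They received NTS-1 at 25 mg/kg, or Dulbecco's phosphate buffered saline as vehicle, under the skin in a volume of 10 mL/kg. Groups of 10 mice were dosed, and RNA came from the 3 or 4 livers of a group that ranked highest for a score of minor hepatic hypertrophy, so that each group represents selected animals. For the further comparisons the data held TS-2 (labelled toxic, 4 mice) and HTS-3 (labelled highly toxic, 3 mice) at the same dose and time, NTS-1 at 16 h (4 mice) and 72 h (3 mice), and 3 vehicle mice at each of these times.

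Type I interferons act on nearly every cell of the liver. Their receptor passes the signal through the kinases JAK1 and TYK2 to transcription factors, IRF9 among them, which bind promoters at a DNA element with repeated GAAA cores, the interferon-stimulated response element. The genes behind it encode sensors of foreign nucleic acid, proteins that block viral translation or replication, and the transcription factor IRF7, which amplifies the response, together with brakes such as USP18 that end it. Foreign nucleic acids are among the triggers of this pathway, through endosomal Toll-like receptors and cytosolic sensors.

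Values are array intensities on a linear scale. The 6 arrays shared a floor at 4.56 that held 44.8% to 46.5% of their probe sets, and 32.5% to 32.9% of the probe sets reached 32, under which a gene is called dim here. Pearson correlations over genes, which are not independent replicates, lay between 0.986 and 0.988 among the 3 NTS-1 arrays and between 0.977 and 0.987 among the 3 vehicle arrays. The 3'/5' log2 ratio of the actin control probe sets, a measure of RNA quality, was 1.5 to 1.58 in NTS-1 livers and 1.39 to 1.69 in vehicle livers. Hepatocyte markers were at the level of liver on all arrays: all 12 measured were detected, and their summed intensity was 638160 to 685758 in NTS-1 livers and 645326 to 715207 in vehicle livers. Of 18195 genes measured, 9137 reached 32 on at least 3 of the 37 arrays and were tested. A gene passed at an adjusted p under 0.05 in limma, with 1 model over the 11 groups and Benjamini-Hochberg adjustment over the genes tested. In bulk liver RNA, a change in the number of cells of a type and a change in RNA per cell cannot be told apart.

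The promoters of the genes with the largest rises are shown first, because their sequence carries, or lacks, the element named above. Among the 6 largest rises with a promoter in the RefSeq table of build GRCm38.p6 were 3 genes of the Ifit family, which lie on chromosome 19. Each sequence covers 250 bases before to 50 bases after the annotated start, 5′ to 3′ on the plus strand. Capitals mark matches on either strand to a motif of GAAA, any 2 bases and GAAA, which here appear as the reverse complement.
Ifit1, chr19:34640639-34640938: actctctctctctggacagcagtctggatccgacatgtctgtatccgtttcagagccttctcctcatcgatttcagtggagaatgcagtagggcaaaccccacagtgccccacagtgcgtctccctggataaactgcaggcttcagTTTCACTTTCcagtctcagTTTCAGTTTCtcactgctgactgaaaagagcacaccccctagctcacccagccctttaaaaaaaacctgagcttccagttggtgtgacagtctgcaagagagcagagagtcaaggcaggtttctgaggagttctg
Ifit3, chr19:34583279-34583578: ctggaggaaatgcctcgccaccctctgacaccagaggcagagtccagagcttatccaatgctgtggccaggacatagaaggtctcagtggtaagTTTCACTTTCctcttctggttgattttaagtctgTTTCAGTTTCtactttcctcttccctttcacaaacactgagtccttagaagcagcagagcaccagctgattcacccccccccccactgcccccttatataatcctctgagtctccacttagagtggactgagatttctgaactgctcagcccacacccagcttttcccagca
Ifit2, chr19:34550444-34550743: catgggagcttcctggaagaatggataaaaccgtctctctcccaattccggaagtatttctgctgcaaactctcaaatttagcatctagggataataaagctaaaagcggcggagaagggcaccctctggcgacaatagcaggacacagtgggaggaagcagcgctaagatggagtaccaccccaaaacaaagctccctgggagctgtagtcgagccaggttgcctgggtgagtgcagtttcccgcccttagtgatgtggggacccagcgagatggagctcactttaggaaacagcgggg
Ifit1 held 2 matches, at 104 to 95 and 85 to 76 bases before its start, and Ifit3 held 2, at 156 to 147 and 122 to 113 bases before its start. The window of Ifit2, which has 2 annotated starts, and those of Oasl1, Ms4a4c and Oasl2 held none of these letters. The motif stood in at least 1 promoter of 24 of the 63 genes that rose and have an entry (38.1%), against 282 of 7499 tested genes (3.76%) and 1079 of 27025 genes in the whole table (3.99%). With a shorter motif of GAAA, any 2 bases and GAA, which every match of the longer one also holds, chosen after these counts were seen, the shares were 54% of the genes that rose, 8.51% of tested genes and 9.76% of all. The 24 included Cxcl10, Ddx60, Oas1a, Rsad2, Trim30a, Eif2ak2, Gbp3 and Bst2. A match is a description of the letters and does not show binding.

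Between NTS-1 and vehicle livers, 80 genes rose (0.876% of those tested) and 1 fell (0.0109%), together 0.887%, against 304 higher and 94 lower at an unadjusted p under 0.05. The count of falls depended on the setting: no filter and a filter at the 40th percentile each gave 96 higher and 22 lower, and array weights 200 higher and 24 lower. Of the 80 genes 75 rose at least 2-fold, 53 at least 4-fold and 18 at least 16-fold on the fitted scale, and their median log2 change was 2.85, against 0.00 over all genes tested. For each of the 80, all NTS-1 mice lay above all vehicle mice, a pattern seen in that direction in 518 (5.67%) of the genes tested and in the other direction in 341 (3.73%). A 3-against-3 exact test cannot give a two-sided p below 0.1, so no gene was tested on these 6 arrays alone by permutation. The p-values below rest on a spread shared by the selected mice of all 11 groups, and not on that of these 6 mice alone. In 20 of the 80 genes every vehicle array was dim, and for genes with a vehicle mean under 32 a fold is given as a lower limit, with values under 32 taken as 32. Where a gene that rose had more than 1 probe set at 32 or more (20 genes), none of these probe sets went the other way.

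**Figure D1:**
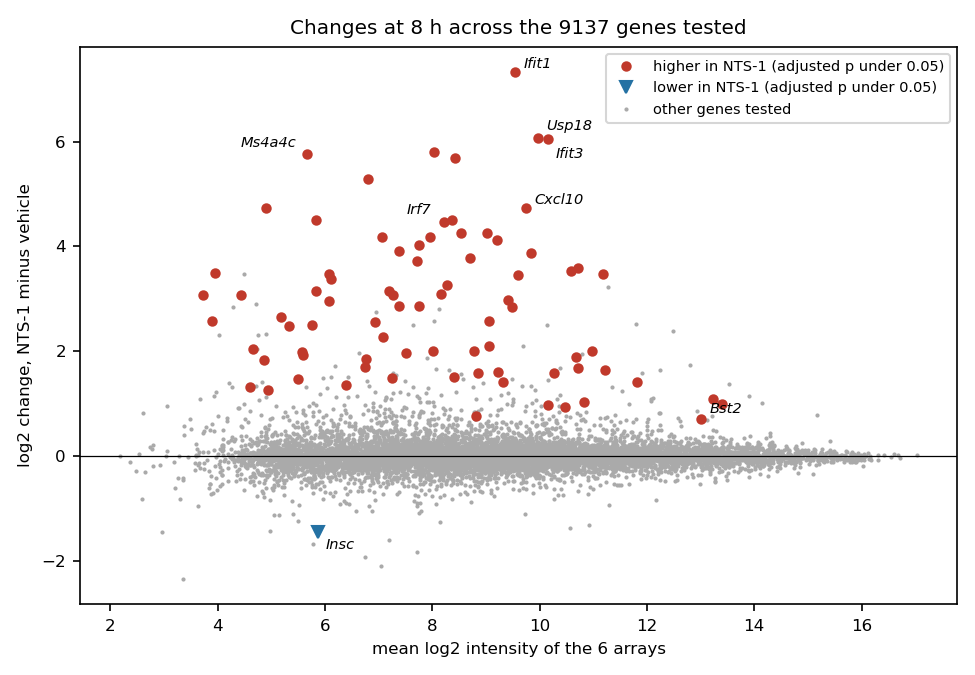
Log2 change between NTS-1 and vehicle livers at 8 h against the mean log2 intensity of the 6 arrays, 1 point per gene tested. The 80 genes that rose reach a log2 change of 7.32 (Ifit1), while the 1 gene that fell, Insc, stands at -1.45.

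Of the 80 genes 41 belong to 13 lists of the interferon pathway and its targets, of which 117 members were tested and 34 of 156 measured were dim on all 6 arrays. Of these 117 members 78 were higher in all NTS-1 mice than in any vehicle mouse and 3 were lower, with a median log2 change of 1.25. Over all genes tested 0.876% rose, 5.67% were higher without overlap and 3.73% lower, and counts for single lists below stand beside these shares. Some of the 41 were dim on all vehicle arrays and may have reached the intensity limit only through groups where they are high. The other 18 pathway lists held 4 genes that rose among 272 tested, with a median of 0.02. The lists were drawn up with earlier results of these data known, so their counts describe the response and are no independent evidence of it.

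**Figure D2:**
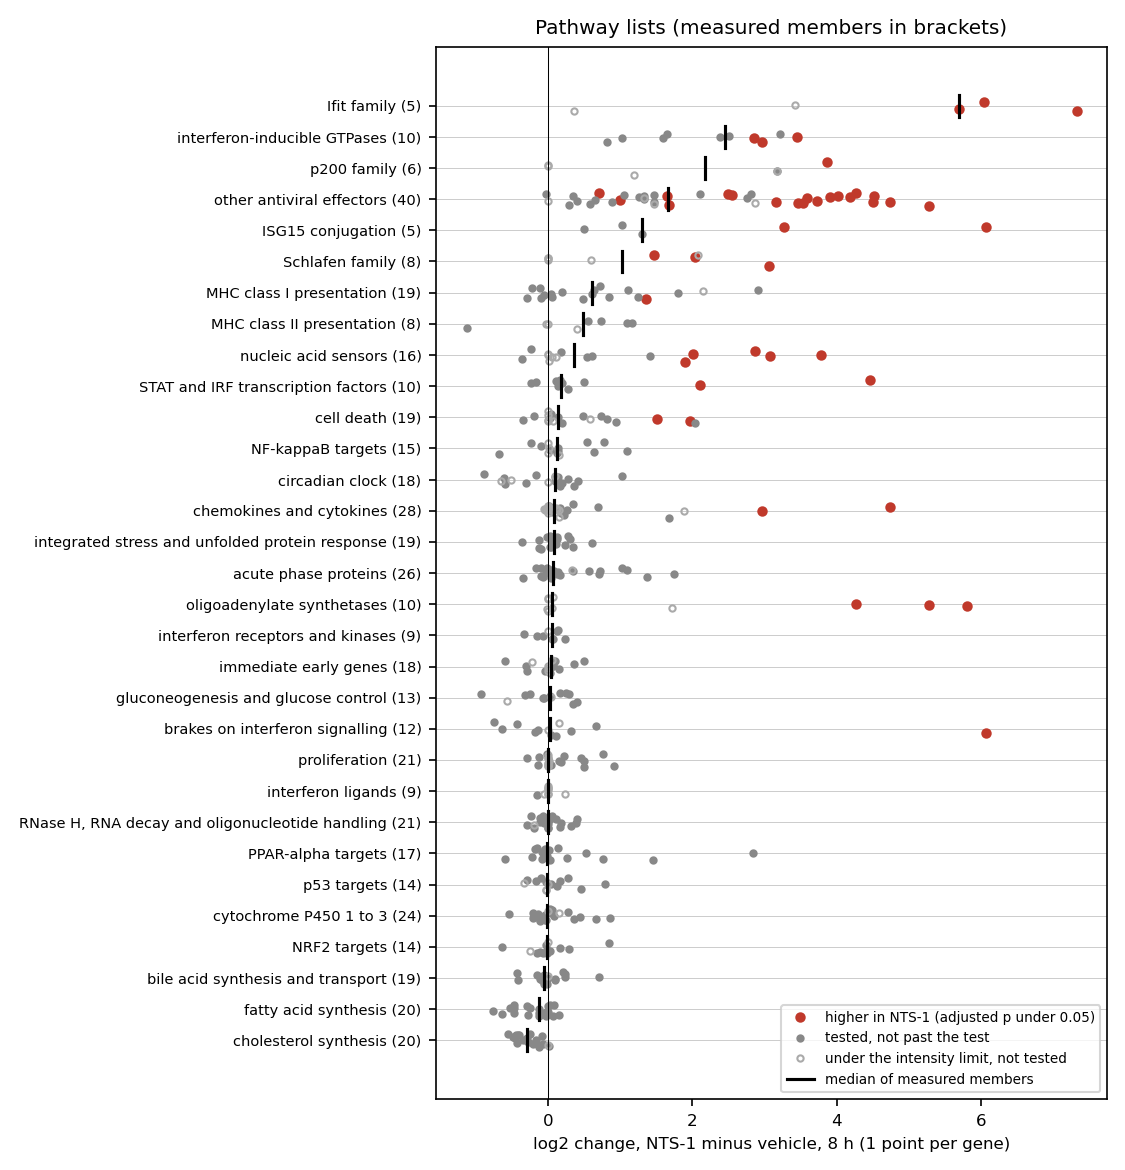
Log2 change between NTS-1 and vehicle livers at 8 h for every measured member of 31 pathway lists, ordered by the median of measured members (black bars). Red points passed the test, grey points did not, and open points lay under the intensity limit and were not tested.

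Interferon genes themselves were at or near the floor. Of 9 measured ligand genes 8 were dim on all 6 arrays, among them Ifnb1, which encodes interferon beta. Ifna2, an interferon alpha gene, was the only member tested, with intensities of 40.6, 41.8 and 40.6 in NTS-1 livers and 40.8, 40.5 and 57.1 in vehicle livers (log2 change -0.15 ± 0.10, limma adjusted p = 1). Interferon made earlier or in other organs was not measured.

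The receptor chains and their kinases did not pass the test. Ifnar2, a chain of the type I receptor, had intensities of 5410.2, 4602 and 4871 in NTS-1 livers and 4146, 4909.9 and 5380.4 in vehicle livers (log2 change 0.05 ± 0.19). Jak1, the kinase bound to it, stood at 635, 597 and 667 in NTS-1 livers and 451, 471 and 741 in vehicle livers (0.23 ± 0.32). The groups overlapped for both genes, and across the 8 tested members of the list the changes lay between -0.33 and 0.23.

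Of the 10 measured STAT and IRF transcription factors 2 rose. Irf7, the amplifier of interferon transcription, had intensities of 1438, 1628 and 1186 in NTS-1 livers, against 55.9, 70.5 and 66.6 in vehicle livers. All 3 NTS-1 mice were far above the vehicle range, and the change was 22-fold (log2 4.46 ± 0.40, limma adjusted p = 5.96e-09). Irf9, a DNA-binding transcription factor of the type I response, had 1103, 1092 and 1138 in NTS-1 livers, against 203, 238 and 359 in vehicle livers, a 4.29-fold rise (adjusted p = 0.00371) with hardly any spread among the NTS-1 mice. Irf3, which switches on interferon genes after phosphorylation, had a log2 change of -0.24 ± 0.19, and Irf1, a factor of the interferon gamma response, one of 0.16 ± 0.44; neither passed.

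Among nucleic acid sensors 5 of 11 tested members rose. Zbp1, a sensor of Z-form nucleic acid, had 1927, 1905 and 1019 in NTS-1 livers, against 105, 118 and 118 in vehicle livers, a 13.7-fold rise (log2 3.78 ± 0.63, adjusted p = 3.58e-04). Eif2ak2, the kinase PKR that stops translation on double-stranded RNA, had 403, 459.9 and 475 in NTS-1 livers, against 40.6, 39.3 and 93.7 in vehicle livers (8.38-fold). The NTS-1 mice formed a tight group for this gene, while vehicle mouse 3 was higher than the other vehicle mice. The 3 cytosolic helicases of the RIG-I family also rose. Dhx58 (LGP2) was 7.31-fold, Ddx58 (RIG-I) 4.03-fold and Ifih1 (MDA5) 3.72-fold higher. The call for Ifih1, at intensities of 2429, 3229.9 and 4116 in NTS-1 livers and 869.8, 817 and 881 in vehicle livers, was lost in 5 of the 6 fits that left out a mouse. The endosomal receptor Tlr7 was dim on all 6 arrays (4.65 to 5.11 in NTS-1 livers, 4.64 to 5.31 in vehicle livers).

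The Ifit genes, whose products bind viral RNA and block its translation, were among the genes with the largest changes, and Ifit1 ranked first. Ifit1 had intensities of 8546, 13363 and 7401 in NTS-1 livers, against 22.1, 102 and 91.7 in vehicle livers. Every NTS-1 mouse was far above every vehicle mouse, and the fitted change was 159.9-fold (log2 7.32 ± 0.82, limma adjusted p = 5.52e-07), or at least 141.4-fold with values under 32 taken as 32. Ifit3 had 7505, 15547 and 6765 in NTS-1 livers, against 116, 111 and 214 in vehicle livers (65.9-fold, adjusted p = 6.60e-08). Ifit2 had 2287, 2796 and 2399 in NTS-1 livers, against 45.6, 48.5 and 49.7 in vehicle livers (51.8-fold, adjusted p = 1.96e-09), with little spread in either group. Of 5 measured members 3 were tested, and Ifit2 rose although its promoter windows held no match.

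Oligoadenylate synthetases make the messenger that activates RNase L, although the OAS-like proteins OASL1 and OASL2 act in other ways. Of 10 measured members 7 were dim on all 6 arrays and 3 were tested. Oasl1, which in mice limits translation of Irf7, had 1589.8, 2737 and 1724 in NTS-1 livers, against 38.8, 35.2 and 31.1 in vehicle livers (56.1-fold, log2 5.81 ± 0.62, adjusted p = 2.07e-07). Oas1a had 2062, 1794 and 1163 in NTS-1 livers, against 91.0, 66.4 and 101 in vehicle livers, a 19.2-fold rise with a small error (log2 4.26 ± 0.28, adjusted p = 5.56e-12). Oasl2 was at least 21.6-fold higher, with 664, 853 and 589.8 in NTS-1 livers and 14.6, 12.0 and 32.3 in vehicle livers.

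**Figure D3:**
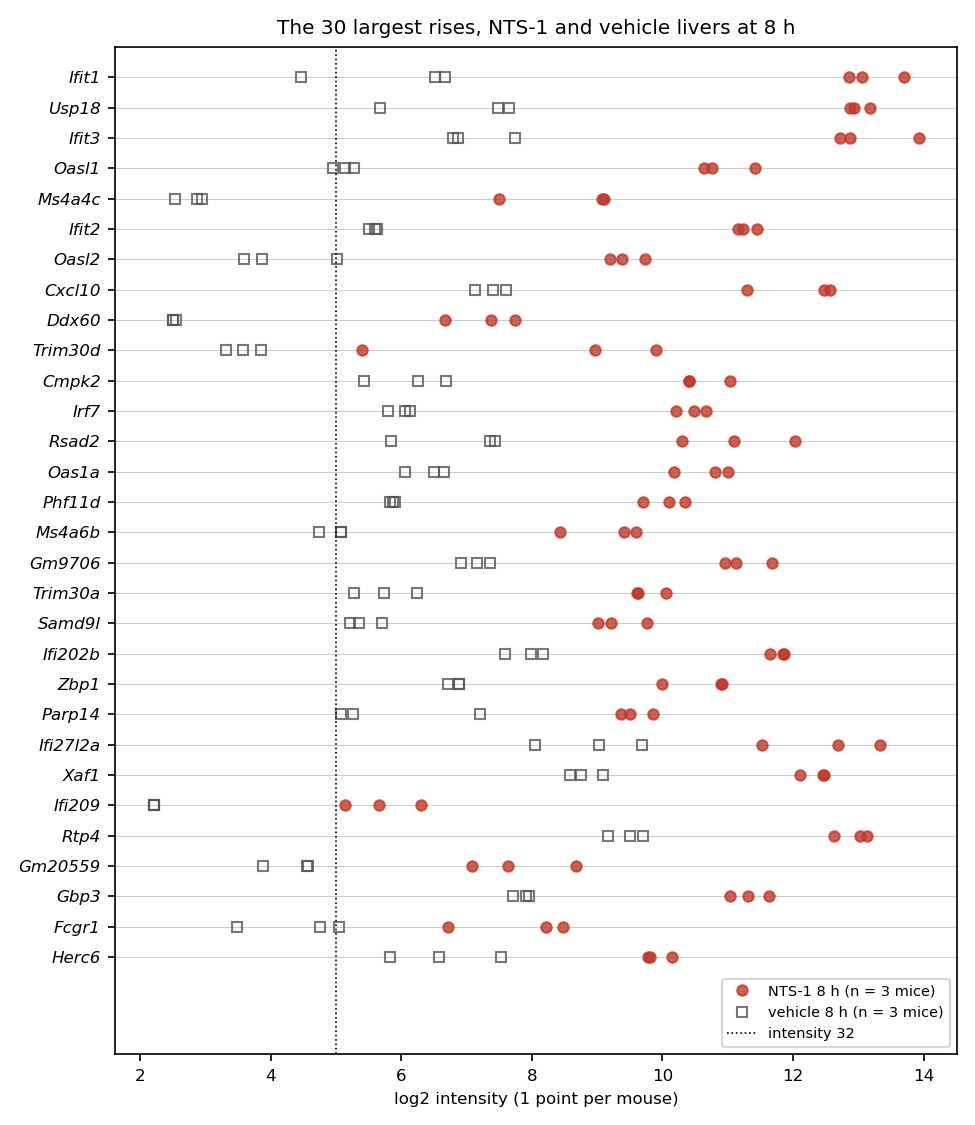
Log2 intensity of the 30 genes with the largest rises, 1 point per mouse, in NTS-1 (filled circles) and vehicle (open squares) livers at 8 h, with the dotted line at an intensity of 32. The groups do not overlap for any of these genes, and the widest NTS-1 spread is that of Trim30d, from 42.4 to 959.6.

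Other antiviral effectors made up the largest group, with 19 of 36 tested members higher and 33 of 36 with NTS-1 mice wholly above vehicle mice. Over all genes tested these shares were 0.876% and 5.67%. Of the 19, Ddx60, Trim30d, Tor3a and Epsti1 were dim on all vehicle arrays at 8 h. These may have reached the intensity limit only through groups where they are high. Cmpk2, a mitochondrial nucleotide kinase, had 1354, 2106 and 1358 in NTS-1 livers, against 43.1, 103 and 76.1 in vehicle livers (22.6-fold, adjusted p = 2.22e-08). Rsad2 encodes viperin, which makes a chain-terminating nucleotide, and had 2192, 4173 and 1265 in NTS-1 livers, against 57.6, 165 and 172 in vehicle livers (19.2-fold). Both genes were lowest in vehicle mouse 1, and the Rsad2 call was lost when the compared groups were fitted alone. Phf11d, an interferon-inducible PHD finger gene, had 1101, 1298 and 836 in NTS-1 livers, against 60.2, 58.8 and 56.6 in vehicle livers (18.1-fold, log2 4.18 ± 0.26, adjusted p = 2.05e-12). Trim30a, a restraint on inflammatory signalling, was 16.2-fold higher, and Samd9l, a restriction factor of poxviruses, 15-fold. Ddx60, a helicase that aids RIG-I, was dim in vehicle livers (5.70 to 5.89) and stood at 102, 214 and 166 in NTS-1 livers, at least 4.80-fold higher.

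Some effectors were already abundant in vehicle livers. Bst2, which encodes tetherin, the protein that holds budding virus at the cell surface, had 11195, 10368 and 10247 in NTS-1 livers, against 5977, 7357 and 6198 in vehicle livers. The ranges were apart, the rise was 1.63-fold (log2 0.71 ± 0.14, adjusted p = 0.00494), and the call was lost without vehicle mouse 1. Ifi35 was 1.99-fold and Parp12, an ADP-ribosyltransferase that restricts viral translation, 3.12-fold higher. Trim30d was the least even of the large rises: it had 42.4, 959.6 and 502 in NTS-1 livers, against 14.5, 11.9 and 10.0 in vehicle livers (at least 8.55-fold, adjusted p = 0.00836). The call for Trim30d was lost without NTS-1 mouse 2, NTS-1 mouse 3 or vehicle mouse 3. A pair of antiviral GTPase genes, named after their values were seen, lay under the intensity limit: Mx1 (7.19, 24.2 and 8.73 in NTS-1 livers) and Mx2 (29.0, 33.0 and 37.9), both at the 4.56 floor on all vehicle arrays, were not tested.

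Brakes and conjugation factors gave 1 very large rise. Usp18, which removes ISG15 from proteins and blocks the type I receptor, had 7513, 7804 and 9269.5 in NTS-1 livers, against 51.3, 178 and 201 in vehicle livers. The 3 NTS-1 mice lay close together, and the change was 66.7-fold (log2 6.06 ± 0.62, adjusted p = 7.47e-08). It was the only one of 10 tested brakes to rise: Cish, a cytokine-induced inhibitor, had a log2 change of -0.75 ± 1.55, and Ptpn2, a phosphatase of JAK kinases, one of -0.14 ± 0.15. Herc6, the mouse ligase that attaches ISG15, was 9.62-fold higher with 893, 1138 and 874 in NTS-1 livers and 57.0, 95.2 and 184 in vehicle livers (adjusted p = 6.45e-04). All 5 measured members of the ISG15 conjugation list were higher in all NTS-1 mice than in any vehicle mouse, of which 2 passed.

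Interferon-inducible GTPases, which attack the vacuoles of intracellular parasites and bacteria, had a median log2 change of 2.44, and in 9 of 10 tested members all NTS-1 mice lay above all vehicle mice, of which 3 passed. Gbp3 had 2529, 3159 and 2089 in NTS-1 livers, against 210.0, 249 and 242 in vehicle livers (11.0-fold, log2 3.45 ± 0.62, adjusted p = 9.10e-04). Gbp7, also a guanylate-binding protein, was 7.83-fold and Gbp2 7.2-fold higher, and these calls were lost without vehicle mouse 1 (Gbp7) and without vehicle mouse 2 or NTS-1 mouse 2 (Gbp2). Among the Schlafen genes, regulators of lymphocyte growth and RNA cleavage, 8 were measured, 4 were dim on all 6 arrays and 3 were tested. These 3 were dim on all vehicle arrays, so that they reached the intensity limit only through other groups and their number is no support; Slfn9 was at least 2.34-fold and Slfn5 at least 1.60-fold higher. Slfn8 was dim in NTS-1 mouse 1 too (22.9, 74.8 and 32.6 in NTS-1 livers, 4.56 on all vehicle arrays), at least 1.33-fold higher, and was no longer past the test with values under 32 set to 32. Of the p200 family, DNA-binding proteins of the AIM2 group, Ifi202b rose 14.6-fold, with 3205, 3719 and 3682 in NTS-1 livers and 288, 192 and 254 in vehicle livers.

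Few genes of antigen presentation passed. Of 18 tested MHC class I genes 1 passed, H2-M3, a nonclassical molecule that presents formylated peptides, with 142, 171 and 99.4 in NTS-1 livers and 51.1, 56.1 and 51.1 in vehicle livers (2.55-fold, adjusted p = 0.00954, lost in 4 of the 6 fits that left out a mouse). B2m, the light chain of class I molecules, had a log2 change of 0.04 ± 0.08 and H2-D1, a classical heavy chain, one of -0.22 ± 0.26, with NTS-1 mouse 2 at 14102 and the other NTS-1 mice at 35186 and 32794. The mean of all H2-D1 probe sets gave 0.79, so its probe sets disagree. In the class I list 9 of 18 tested genes were higher in all NTS-1 mice than in any vehicle mouse. None of 5 class II genes passed.

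Chemokines and cytokines were mostly dim: 17 of 28 measured members stayed under 32 on all 6 arrays, and 2 of 11 tested rose. Cxcl10, a chemokine for activated T cells, had 5676, 6050.4 and 2524 in NTS-1 livers, against 139, 194 and 169 in vehicle livers (26.7-fold, log2 4.74 ± 0.76, adjusted p = 1.91e-04). NTS-1 mouse 3 was more than 2 times below the other NTS-1 mice and still far above vehicle. Tnfsf10, the death ligand TRAIL, had 137, 363 and 137 in NTS-1 livers, against 29.4, 18 and 27.1 in vehicle livers (at least 5.92-fold, adjusted p = 0.0123, lost without vehicle mouse 2 or NTS-1 mouse 2). Cxcl9, a related chemokine known mainly as a target of interferon gamma, had 2552, 2506 and 2088 in NTS-1 livers and 681, 931 and 648 in vehicle livers; its log2 change of 1.67 ± 0.56 did not pass (adjusted p = 0.375).

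Against the background of 0.876% of tested genes, 0 of 11 tested NF-kappaB targets passed the limma test, a count too small to differ from it, and Nfkbia, the inhibitor that NF-kappaB induces, had a log2 change of 0.14 ± 0.18. Likewise 0 of 25 tested acute phase genes passed in limma; 17 of 26 measured had positive and 9 negative changes, and in 5 all NTS-1 mice lay above all vehicle mice. The changes reached 1.75 ± 1.29 for Mt2, a metallothionein, where vehicle mouse 3 stood at 822 and the other vehicle mice at 8605 and 8477, while Fgb, a fibrinogen chain, had -0.10 ± 0.21. Of 13 tested cell death genes 2 rose. Mlkl, the executioner of necroptosis, had 399.7, 439 and 269 in NTS-1 livers, against 61.0, 115 and 113 in vehicle livers (3.91-fold, adjusted p = 3.09e-04). The Mlkl call was lost when the compared groups were fitted alone. Casp1, the inflammasome protease, had 871, 535 and 406 in NTS-1 livers, against 222, 207 and 179 in vehicle livers (2.84-fold, adjusted p = 0.00712, lost without NTS-1 mouse 1 or vehicle mouse 3).

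No member of the lists for hepatic metabolism passed. Of all genes tested only 0.887% passed, so each list is too small for its count to differ from that share. Among cholesterol synthesis genes 18 of 20 measured members had a negative log2 change and 1 a positive one, with a median of -0.29, against 6551 negative and 6199 positive among all 18195 genes. Hmgcs1, the synthase at the head of that pathway, had 11005, 15255 and 10214 in NTS-1 livers and 16090.1, 9664 and 20548 in vehicle livers (log2 change -0.30 ± 0.46), so that the groups overlapped. The medians over measured members were -0.13 for fatty acid synthesis (20 genes tested), -0.02 for cytochrome P450 genes (22 tested) and -0.06 for bile acid genes (18 tested). In fatty acid synthesis 4 of 20 tested genes were lower in NTS-1 mice without overlap and 0 higher. The counts were 2 and 0 of 19 for cholesterol synthesis, 1 and 1 for cytochrome P450 genes and 0 and 0 for bile acid genes. Over all genes tested 3.73% were lower and 5.67% higher without overlap. Cyp2e1, an ethanol- and drug-oxidizing enzyme of hepatocytes, had a log2 change of -0.04 ± 0.08. The median was 0.08 for 19 tested genes of the integrated stress and unfolded protein responses, where Hspa5, the chaperone BiP, stood at 0.23 ± 0.35. In the list of RNase H, RNA decay and oligonucleotide handling, which holds receptors and proteins that bind such compounds, the median was 0.00. Of its 20 tested genes 0 passed the limma test, again too few to differ from the share of all genes.

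The 1 gene that fell was Insc, which encodes an adaptor that orients the mitotic spindle. It had 41.6, 24.5 and 42.7 in NTS-1 livers, against 87.4, 103 and 99.8 in vehicle livers, and the log2 change was -1.45 ± 0.31 (limma adjusted p = 0.00985). The call was lost in 3 of the 6 fits that left out a mouse, without vehicle mouse 2, vehicle mouse 3 or NTS-1 mouse 2. At 8 h the geometric mean was 35.2 in NTS-1, 67.8 in TS-2, 37.8 in HTS-3 and 96.4 in vehicle livers, so that HTS-3 livers were about as low, and NTS-1 against HTS-3 did not pass (limma adjusted p = 1). Its geometric mean was 303 in NTS-1 livers and 295 in vehicle livers at 16 h, and 317 in NTS-1 livers and 288 in vehicle livers at 72 h.

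Of the 80 genes 34 were in none of the lists, and several encode surface proteins of myeloid and lymphoid cells. The genes in this paragraph other than Ms4a4c, Ms4a6b and Fcgr1 were picked after their values were seen, so they are described and support nothing. In the Ms4a family, tetraspan membrane proteins, 5 of 17 measured members rose and 9 were dim on all 6 arrays. Ms4a4c had 549, 537 and 181 in NTS-1 livers, against 5.78, 7.71 and 7.35 in vehicle livers, at least 11.8-fold higher (adjusted p = 3.20e-05). Ms4a6b had 775, 680.2 and 344 in NTS-1 livers, against 26.7, 33.9 and 33.9 in vehicle livers, at least 17.0-fold higher, while Ms4a6d rose 8.82-fold and Ms4a6c 7.27-fold. NTS-1 mouse 3 was the lowest NTS-1 mouse for all of these Ms4a genes. Of 4 tested IgG receptor genes, Fcgr1 (at least 6.92-fold, a member of the monocyte marker list) and Fcgr4 (4.86-fold) rose, and Fcgr2b and Fcgr3 had log2 changes of 0.15 ± 0.43 and 0.32 ± 0.37. Rises were also found for the formyl peptide receptor Fpr2 (8.49-fold) and the immune checkpoint ligand Cd274 (at least 2.96-fold). The call was lost in 4 of the 6 fits that left out a mouse for Fcgr4 and in all 6 for Cd274. Those for Fcgr1 and Fpr2 were lost when the compared groups were fitted alone. The natural killer receptor Klrk1 had 49.0, 76.1 and 13 in NTS-1 livers, against 6.07, 6.07 and 6.13 in vehicle livers, and its call was lost in 5 of the 6 fits that left out a mouse. Gm9706, a gene given here by name only, had the smallest adjusted p of all (9.20e-15), with 3285, 2237 and 1994 in NTS-1 livers and 121, 163 and 143 in vehicle livers.

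No marker of resident liver macrophages passed the test. All 12 measured Kupffer cell markers had positive log2 changes, with a median of 0.44 and 5 of 11 tested wholly above vehicle. C1qb, a chain of complement C1q, had 7897, 5647 and 5626 in NTS-1 livers and 3019, 3041 and 2854 in vehicle livers (log2 change 1.09 ± 0.30, adjusted p = 0.113). The summed intensity of the list was 36059 to 48037 in NTS-1 livers and 28408 to 32246 in vehicle livers, with no overlap. Sums of other cell type lists, given below, were also without overlap. The defining Kupffer cell marker Clec4f was detected on all 6 arrays. Monocyte and recruited macrophage markers summed to 12924 to 26952 in NTS-1 livers and 10022 to 16231 in vehicle livers. Of 13 measured, Fcgr1 rose and 6 were dim on all 6 arrays, among them Ccr2 and Itgam. The part of these cells in the rises described above was not tested.

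Markers of lymphocytes and granulocytes were largely dim. Of 11 T cell markers 10 were under 32 on all 6 arrays, as were 7 of 8 natural killer cell, 9 of 11 neutrophil, 6 of 7 plasmacytoid dendritic cell and 4 of 7 B cell markers. The T cell sum was 91.9 to 100.5 in NTS-1 livers and 91.3 to 101.9 in vehicle livers. The neutrophil sum was 189 to 542 in NTS-1 livers and 92.1 to 202 in vehicle livers, carried by S100a8 (364, 186 and 107 in NTS-1 livers, 106, 93.7 and 20.4 in vehicle livers, adjusted p = 1). Sinusoidal endothelial, stellate and cholangiocyte lists had 0 genes past the limma test among 12, 10 and 1 tested, with median log2 changes of measured members of 0.07, 0.06 and 0.00. These counts are too small to differ from the 0.887% of all tested genes that passed. The sinusoidal endothelial sum was 17996 to 19912 in NTS-1 livers and 15336 to 17569 in vehicle livers, without overlap. The cholangiocyte sum was lower without overlap, at 270.9 to 288.4 in NTS-1 livers and 312.6 to 352.5 in vehicle livers. Stellate sums overlapped, at 22523 to 24185 in NTS-1 livers and 20056 to 22979 in vehicle livers.

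**Figure D4:**
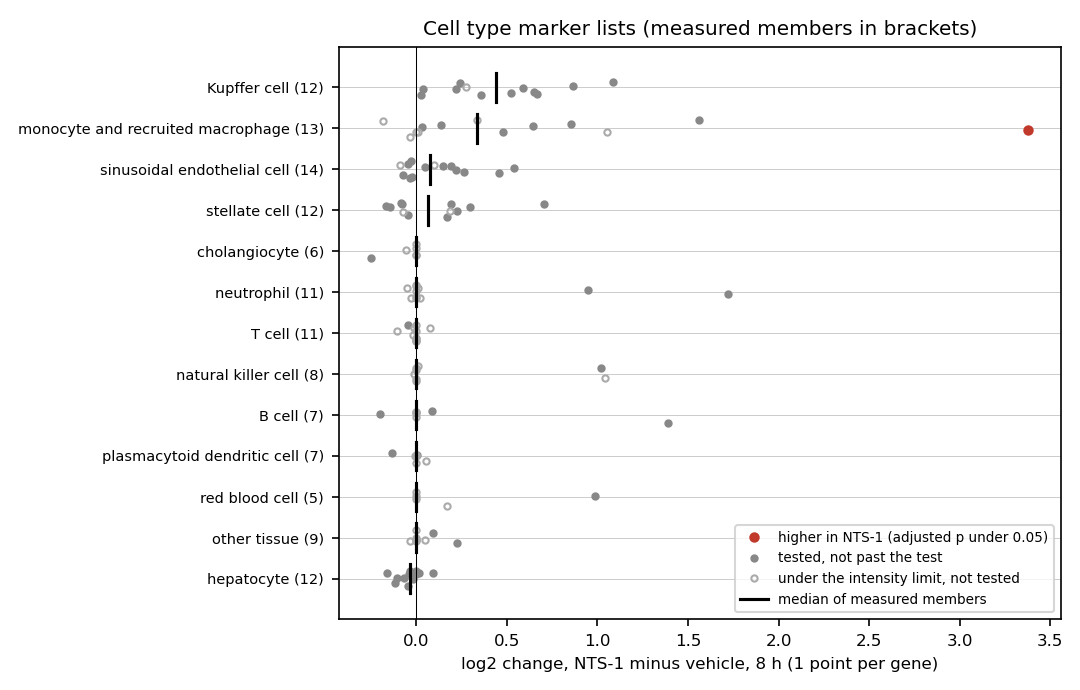
Log2 change between NTS-1 and vehicle livers at 8 h for every measured member of 13 lists of cell type markers, with black bars at the median of measured members. The Kupffer cell list has the highest median (0.44), Fcgr1 is the only marker past the test, and hepatocyte markers lie close to 0.

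The 3 NTS-1 mice did not respond equally. Over the 80 genes the median rise above the vehicle mean was 2.62, 3.12 and 2.36 on the log2 scale in NTS-1 mice 1, 2 and 3. NTS-1 mouse 2 was the highest in 53 of the 80 genes and NTS-1 mouse 3 the lowest in 51. In 7 genes NTS-1 mouse 3 lay more than 2-fold below the other NTS-1 mice, namely Klrk1, Ms4a4c, Fcgr1, Evi2a, Cxcl10, Ifi27l2a and Ms4a6d, a set chosen by this gap. Among vehicle mice, mouse 1 was the lowest or tied for the lowest in 41 of the 80 genes. Leaving out each of the 6 mice in turn kept 54 of the 80 calls in every fit.

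NTS-1 was then compared with TS-2 at the same dose and time, with vehicle arrays entering only the shared estimate of the spread, the intensity limit and the choice of probe set. In NTS-1 livers 82 genes were higher (0.897%) and 0 lower, with 231 and 138 at an unadjusted limma p under 0.05, and 46 of the 82 were in the interferon lists. Ifit1 had 8546, 13363 and 7401 in NTS-1 livers, against 22 to 88 in the 4 TS-2 livers, a log2 difference of 7.68 ± 0.77 (limma adjusted p = 5.96e-08). Phf11d was 17.5-fold higher in NTS-1 than in TS-2 livers, Oas1a 13.6-fold and Irf7 18-fold. Irf7 had a geometric mean of 1406 in NTS-1 livers, 78.3 in TS-2 livers and 64 in vehicle livers. For the 80 genes that rose after NTS-1, the median log2 change over the same vehicle mice was 2.85 after NTS-1 and 0.21 after TS-2. These medians share the vehicle arrays, and the 80 were chosen on the NTS-1 change.

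Against HTS-3, 98 genes were higher in NTS-1 livers (1.07%) and 8 lower (0.0876%), together 1.16%. Of the 98, 31 were in the interferon lists, and of the remaining 67 there were 51 whose NTS-1 level was within 2-fold of vehicle. Afdn, a protein of cell junctions, was among those, with mean log2 levels of 9.12 in NTS-1 livers, 3.86 in HTS-3 livers and 9.30 in vehicle livers (adjusted p = 6.33e-13 against HTS-3). Cxcl10 had 5676, 6050.4 and 2524 in NTS-1 livers, against 5953, 147 and 284 in HTS-3 livers, so that HTS-3 mouse 1 reached the NTS-1 range. Usp18 had 7513, 7804 and 9269.5 in NTS-1 livers, against 1746, 397 and 265 in HTS-3 livers. The median change of the 80 genes over vehicle was 0.80 after HTS-3. The HTS-3 sample of mouse 3 has a title of 8 h and a description of 16 h: with it moved to 16 h the counts were 54 higher and 7 lower, and without it 66 higher and 13 lower.

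The NTS-1 effect at 8 h was set against that at later times, each over its own vehicle mice, by an interaction term. It was larger at 8 h than at 16 h in 8 genes (0.0876%) and smaller in 0, with 227 and 46 at an unadjusted limma p under 0.05. Ifi209 and Ddx60 were dim in vehicle livers, so the size of their difference is not given here. The 8 were Gm9706, Ifi209, Phf11d, Ddx60, Samd9l, Trim30a, Gm11772 and Slfn9. Phf11d, for example, had a geometric mean of 1061 in NTS-1 livers and 58.5 in vehicle livers at 8 h, and 264 in NTS-1 livers and 66.4 in vehicle livers at 16 h (difference of log2 effects 2.19 ± 0.35, limma adjusted p = 0.00319). Irf7 had geometric means of 1406 in NTS-1 livers and 64 in vehicle livers at 8 h, and 1137 in NTS-1 livers and 63.8 in vehicle livers at 16 h, and its difference of effects did not pass. The median change of the 80 genes was 2.85 at 8 h and 1.07 at 16 h. Vehicle levels enter these changes, and unlike those of Phf11d and Irf7 some were higher at 16 h. Oasl1 had geometric means of 1958 in NTS-1 livers and 34.9 in vehicle livers at 8 h. At 16 h it had 779 in NTS-1 livers and 99.4 in vehicle livers. Usp18 had 122 in vehicle livers at 8 h and 250 at 16 h. How much of the smaller change at 16 h came from vehicle levels was not tested.

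Between 8 h and 72 h the effect was larger at 8 h in 32 genes (0.35%), 21 of them in the interferon lists, and smaller in 0, with 242 and 103 at an unadjusted limma p under 0.05. Oas1a had a geometric mean of 1626 in NTS-1 livers and 84.7 in vehicle livers at 8 h, against 110.5 in NTS-1 livers and 95.3 in vehicle livers at 72 h (difference of log2 effects 4.05 ± 0.39, adjusted p = 8.64e-08). Usp18 had 312 in NTS-1 livers and 145 in vehicle livers at 72 h. The median change of the 80 genes at 72 h was 0.34, with 10 genes at 1 or more. The 80 genes were chosen at 8 h, and the later medians are given beside that choice.

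**Figure D5:**
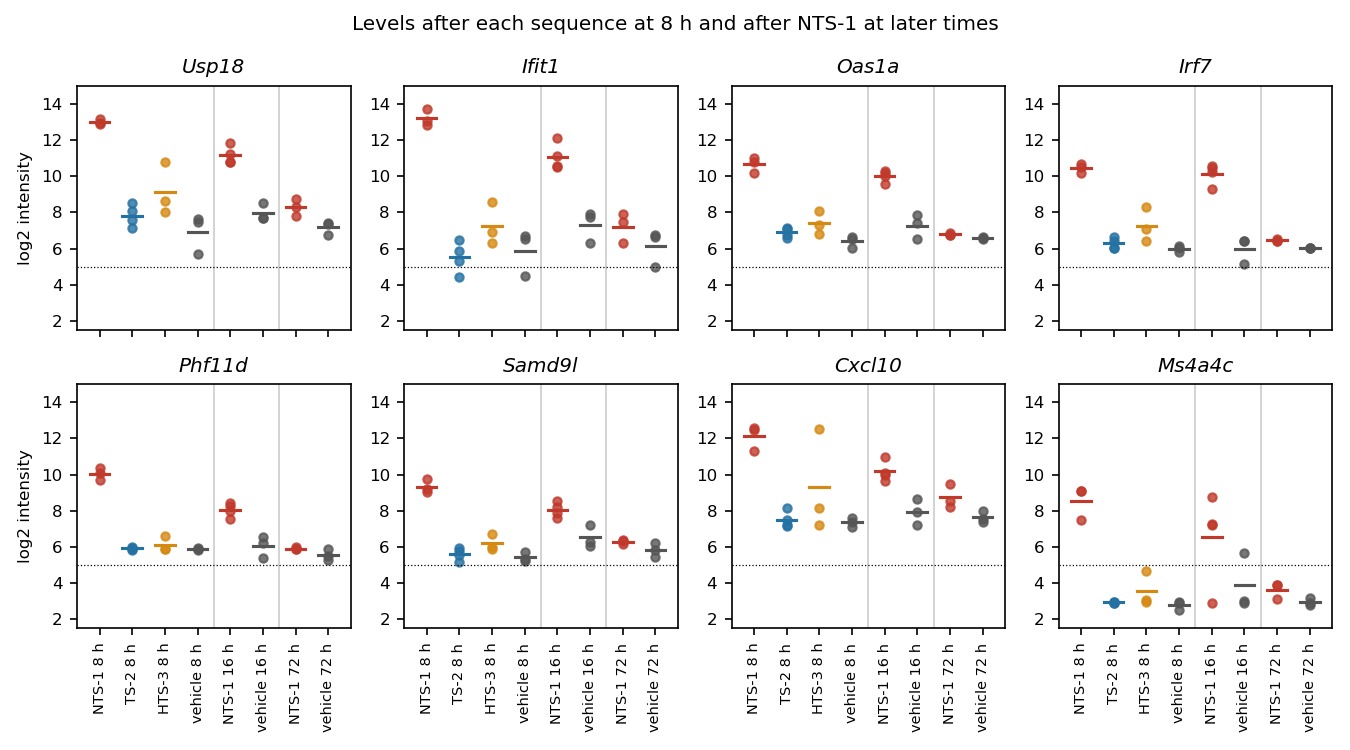
Log2 intensity of 8 genes in NTS-1, TS-2, HTS-3 and vehicle livers at 8 h and in NTS-1 and vehicle livers at 16 h and 72 h, 1 point per mouse with the group mean as a bar and the dotted line at an intensity of 32. NTS-1 livers at 8 h have the highest group mean for each of the 8 genes, for example Usp18 (geometric mean 8161, against 122 in vehicle livers at 8 h). HTS-3 mouse 1 is the high point of its group for Cxcl10 (5953).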

How the data were processed

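Liver RNA was hybridised to arrays of 45101 probe sets. The deposited values are intensities on a linear scale, made by the authors with RMA, per the submitters' processing notes; neither its version nor a genome build is stated there. Intensities were taken to log2. Of the probe sets, 34958 carried 1 gene, 932 several and 9211 none in the platform annotation, and 34754 were matched by gene ID to RefSeq symbols. The probe set with the highest mean over the 37 single-dose arrays stood for its gene. The 19 arrays of a 2-week study were not used, because they were not normalized with these. An intensity of 32 reached on 3 arrays or more qualified a gene for testing (9137; 9058 were left out) with limma 3.58.1 in R 4.3.3, with 1 mean per group over 11 groups, eBayes and Benjamini-Hochberg adjustment. The procedure was tested on simulated data. No arrays were identical.

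The members and lists were chosen with earlier results of these data known. Genes were named by a rule: the 16 largest rises and the 8 largest falls past the test whose groups did not overlap; per pathway list up to 6 members past the test or, where fewer than 3 passed, the 3 brightest; per cell type list the 3 brightest and those past the test; and for the other comparisons interferon list members and, for each direction, the 5 genes with the lowest adjusted p. Bst2, Ifi35, Parp12, Mx1, Mx2, Trim30a, Samd9l, Ccr2, Itgam, Clec4f, Evi2a and Ifi27l2a, the Ms4a, Fcgr4, Fpr2, Cd274 and Klrk1 values, and the genes plotted across groups were picked after values were seen. Replicate numbers did not pair the mice: deviations of same-numbered NTS-1 and vehicle mice correlated at -0.09, 0.05 and -0.15. Alternatives covered the intensity filter, low values, probe sets per gene, normalization, moderation, array weights, an RNA quality covariate, a replicate block, the compared groups alone, the HTS-3 sample with conflicting times, and each mouse left out.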

Additional observations from a re-analysis of the deposited data

Results flagged for a closer look

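The NTS-1 effect differed between 8 h and 16 h, by an interaction term in limma, in 8 genes, and between 8 h and 72 h in 32 genes. The difference of log2 effects between 8 h and 16 h was 2.92 for Gm9706, 2.29 for Ifi209, 2.19 for Phf11d, 3.23 for Ddx60 and 2.37 for Samd9l. Between 8 h and 72 h it was 4.06 for Gm9706, 3.37 for Ifi209, 3.82 for Phf11d, 4.05 for Oas1a and 3.47 for Samd9l. All of these were larger at 8 h. Ifi209 and Ddx60 were dim in vehicle livers. Both were also dim in NTS-1 livers at 16 h and 72 h, except for Ddx60 in NTS-1 mouse 4 at 16 h (39.8). The fitted differences of these genes rest on values near the floor and are no measure of size.

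Ddx60 had 1 TS-2 mouse at 8 h apart from the other 3, with a gap of 1 times the range of the group, at intensities of 6.25 and 5.70, close to the floor. Afdn had 1 NTS-1 mouse at 16 h apart, at 627 against 516 to 525 in the other mice, a gap of 0.905 times the range. Among 30 groups examined this way, chance alone flags about 1 in 20.

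Among 1334 tested probe sets with no gene or several genes in the annotation, 18 were higher in NTS-1 than in vehicle livers at 8 h (1.35%) and 0 lower in limma. They enter no gene count above.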

How the results depend on the processing

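Of the 80 genes higher in NTS-1 than in vehicle livers, 54 passed in each of the 6 fits that left out a mouse and 43 under every alternative; leaving out a mouse gave 64 to 80 higher and 0 to 2 lower. Array weights gave 200 higher, with all 80 among them, and 24 lower, but the weight estimate stopped before reaching its tolerance. The compared groups alone gave 65 higher, of which 52 were among the 80. The same with an intensity trend (added after seeing the data) gave 80 higher, of which 62 were among the 80. Calls lost with the compared groups alone but kept whichever mouse was left out included Rsad2, Mlkl, Fcgr1, Fpr2, Slfn5 and Ifi35. For genes lower in NTS-1, the 40th percentile filter and no filter gave 22 each and quantile normalization 2. The compared groups alone, the same with an intensity trend and the HTS-3 sample moved to 16 h gave 0 lower each in limma. Against TS-2, array weights gave 151 higher and 23 lower, the compared groups alone 3 lower, the replicate block 2 lower and values under 32 set to 32 gave 1 lower; leaving out a mouse gave 56 to 74 higher and 0 to 2 lower. Against HTS-3, array weights gave 41 higher and 0 lower, the compared groups alone 34 higher and 2 lower, the moved sample 54 higher, the mean of probe sets 4 lower and quantile normalization 13 lower; leaving out a mouse gave 66 to 119 higher and 4 to 13 lower. For the effect at 8 h against 16 h, both wider filters gave 14 higher and array weights 52 higher and 7 lower; leaving out a mouse gave 6 to 11 higher. Against 72 h, both wider filters gave 3 lower and array weights 78 higher and 10 lower; leaving out a mouse gave 25 to 34 higher and 0 to 1 lower. The cause of these shifts was not tested. The replicate block gave 80 higher and 1 lower between NTS-1 and vehicle, and the numbers did not pair the mice. Of 2620 values of named genes under alternatives, 2565 kept direction and side of the threshold, 40 lost the call, 12 gained it, 3 moved and 0 reversed. Signal near the floor limits the folds of genes dim in vehicle livers, and 3 mice a group limit the precision of all values.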
